A study of Mus musculus with 4 samples.

Results

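The genes described are 10 transcription factors that keep T cells in the naive, resting state, namely Tcf7, Lef1, Satb1, Bach2, Ets1, Foxo1, Foxo3, Foxp1, Elf1 and Elf4. They were chosen by symbol from a table of 16718 genes, and all 10 were found there at 1 FPKM or more (FPKM, a fragment count scaled by gene length and sequencing depth, the unit the values fit), as were 10728 genes in all. The cells were naive CD4+ T cells of mice, stimulated for 4 hours with an antibody to CD3, which engages the T cell receptor. The labels name 2 libraries of wild-type cells (WT) and 2 of cells with a conditional knockout of the zinc finger factor Zfp281 (cKO), and both genotypes were stimulated. The sources used here do not give the Cre driver, the strain, the age or the number of mice, and no unstimulated cells are among the samples.

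The table gives 1 value per gene and genotype, so the spread between libraries is unknown and every difference stands without replicates. The estimated depth was 17365446 reads for WT and 17208154 for cKO. Folds are ratios of cKO to WT FPKM, and the 95% intervals (exact Clopper-Pearson for folds, exact Poisson for levels) cover counting error only. A gene is said to have risen or fallen in cKO where the authors' deposited table lists an FDR below 0.05 for it, a comparison of reads and not of replicated conditions. The targeted gene, Zfp281, had a level of 66.3 FPKM in WT cells and of 0.44 FPKM in cKO cells. In bulk RNA, fewer cells of a type and less RNA per cell cannot be told apart.

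Naive T cells circulate in a resting state that is held actively by transcription factors. TCF-1 (encoded by Tcf7) and LEF-1 are HMG box proteins that bind DNA at the end of the Wnt pathway, SATB1 folds chromatin by binding AT-rich DNA, and BACH2 pairs with small MAF proteins to repress effector genes. FOXO factors drive genes of lymph node homing and of interleukin-7 survival signals and are pushed out of the nucleus by AKT after receptor engagement, while FOXP1 is needed for quiescence. ETS1, ELF1 and ELF4 share the ETS domain, which reads a GGAA core.

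Promoter sequence is described first, and its bearing on the levels of the 10 genes was not tested. RefSeq windows of GRCm38.p6 (mm10) were found for 9 of the 10 genes, all but Ets1. The 250 bases before each listed start were searched on both strands for 5 motifs: a G-rich motif of the kind that Zfp281 binds (GGGGAGGGG), an ETS motif (CCGGAAG), a forkhead motif (TGTTTAC), a TCF/LEF motif (ATCAAAG) and the motif shared by BACH and AP-1 factors (TGANTCA), which reads the same on both strands. The G-rich motif stood before Lef1 and Elf1, 2 of the 9 genes, against 8.77% of the 8437 genes at 1 FPKM or more that have a window. The ETS motif stood before starts of Tcf7 and Bach2, against 17.7% of those genes. The BACH and AP-1 motif stood before starts of Elf1 and Elf4, against 5.03%. The forkhead and TCF/LEF motifs were in none of the 21 windows, against 2.63% and 2.68% of genes. These shares per gene are not like for like. The 9 genes had 21 windows, more per gene than the 32851 windows of 27025 genes in all. By window, the G-rich motif was in 3 of the 21, against 5.75% of all windows. The ETS motif was in 2, against 6.91%, and the BACH and AP-1 motif in 2, against 6.75%. These window shares take in genes below 1 FPKM too, so they are not like for like either. Per gene, the ETS motif stood before 7.83% of all 27025 genes, beside the 17.7% at 1 FPKM or more. Windows with the G-rich or the ETS motif are shown, the matches in capitals, each on the strand of its gene and 5′ to 3′, with the start site right after the last base. The Lef1 window lies on the plus strand at chr3:131110047-131110296, and a second window of Lef1 that overlaps it holds the same match. That of Elf1 lies on the plus strand at chr14:79480944-79481193. That of Tcf7, at chr11:52282596-52282845 on the minus strand, precedes a start inside the gene. That of Bach2, at chr4:32417185-32417434 on the plus strand, also lies inside the gene.
Lef1: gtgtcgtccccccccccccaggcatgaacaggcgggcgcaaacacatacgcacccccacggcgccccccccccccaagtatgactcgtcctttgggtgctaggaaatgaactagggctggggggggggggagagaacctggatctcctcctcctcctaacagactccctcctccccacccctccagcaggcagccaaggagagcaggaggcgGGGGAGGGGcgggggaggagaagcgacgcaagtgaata
Elf1: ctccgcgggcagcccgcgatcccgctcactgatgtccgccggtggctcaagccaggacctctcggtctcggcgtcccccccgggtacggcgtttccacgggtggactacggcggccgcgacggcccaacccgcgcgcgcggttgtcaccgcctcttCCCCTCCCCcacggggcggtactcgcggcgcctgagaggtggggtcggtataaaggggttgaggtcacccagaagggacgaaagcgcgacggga
Tcf7: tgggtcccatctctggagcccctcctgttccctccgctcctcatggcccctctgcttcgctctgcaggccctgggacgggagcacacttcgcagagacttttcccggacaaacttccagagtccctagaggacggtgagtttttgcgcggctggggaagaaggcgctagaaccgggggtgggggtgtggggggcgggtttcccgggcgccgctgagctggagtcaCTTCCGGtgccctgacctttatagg
Bach2: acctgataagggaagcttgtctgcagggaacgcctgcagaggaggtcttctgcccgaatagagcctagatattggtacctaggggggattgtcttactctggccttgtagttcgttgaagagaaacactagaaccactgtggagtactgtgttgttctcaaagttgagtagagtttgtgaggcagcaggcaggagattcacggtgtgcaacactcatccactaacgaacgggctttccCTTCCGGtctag
A match is a string of letters and not a measured binding site.

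Of the 10 factors, 7 rose in cKO, 2 fell and 1 did not pass. Over all genes at 1 FPKM or more, 19.9% rose and 16.9% fell by the same rule. Among the 5854 genes whose mean level was at least 12 FPKM, a level set from the lowest of the 10 factors, 24.2% rose and 23.7% fell. The rises were shallow, from 1.07-fold for Bach2 to 1.29-fold for Foxo3, and none of the 10 factors is among the genes that the authors marked as changed, which needed 2-fold and took in 0.587% of tested genes as higher and 0.559% as lower. With a ratio of at least 1.2-fold required as well, 4 factors rose (Foxo3, Ets1, Satb1 and Elf1) and none fell, against 11.5% and 8.88% of tested genes. The median difference of the 10 factors was 0.18 on the log2(FPKM + 1) scale, beside 0.015 for all tested genes and 0.002 for those with a mean of at least 12 FPKM. If the reads of each genotype are assumed to vary by a further 5% (CV), 2 factors would have passed as higher, Ets1 and Satb1, and none as lower, against 5.78% and 4.8% of tested genes. At 10% none would have passed, against 0.764% higher and 0.699% lower. Those values of CV are assumptions and not measurements. The counts of 7 and 2 also came out with no filter on level (13.4% of genes higher, 11.3% lower). They were the same at 5 FPKM or more (22.6% and 20.2%). Neither setting could alter them, as both use the same FDR and all 10 factors lie above 5 FPKM. The recomputed read test gave 7 and 2 too (19.8% and 17%), as did setting the median change to 0 (17.8% and 18.7%). Both use reads calibrated on the deposited p-values, so they are not separate checks.

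**Figure D1:**
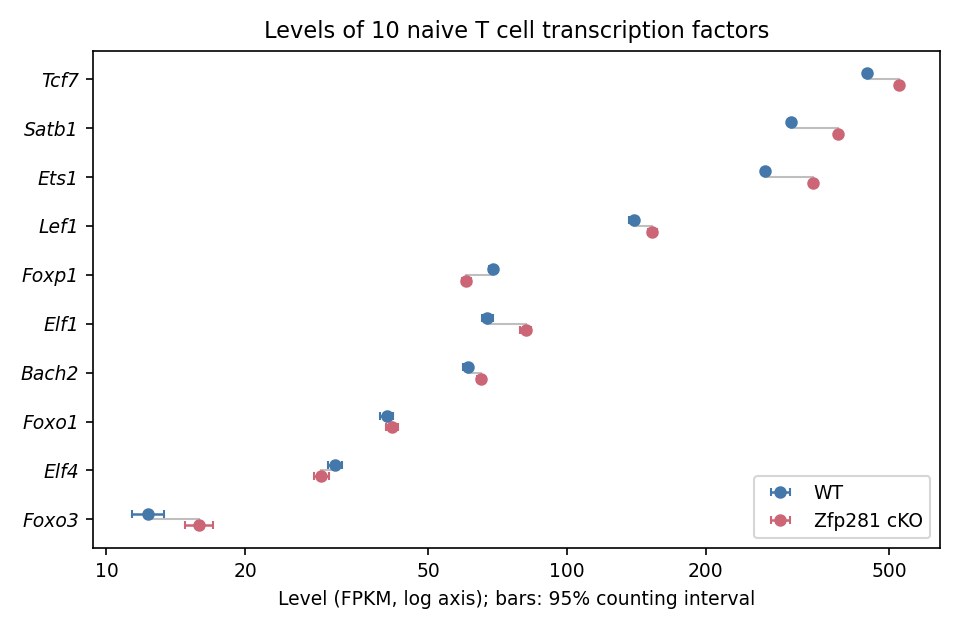
Level of each factor in WT (blue) and Zfp281 cKO (red) cells in FPKM on a log axis, 1 value per genotype, with 95% Poisson counting intervals. Levels ran from 12.3 FPKM (Foxo3, WT) to 524 FPKM (Tcf7, cKO), and Foxp1 and Elf4 alone had their cKO point to the left of the WT point.

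The 10 factors spanned a wide range of levels per gene length. Tcf7 was the highest in both genotypes, followed by Satb1, Ets1 and Lef1 in the same order in each. In WT the next places were held by Foxp1, Elf1 and Bach2, at 69.0, 67.1 and 60.8 FPKM, and the counting intervals of Foxp1 (67.5 to 70.5 FPKM) and Elf1 (65.2 to 69.1 FPKM) overlapped. In cKO that order was Elf1, Bach2 and Foxp1, at 81.3, 65.1 and 60.4 FPKM, with no overlap of neighbouring counting intervals. Foxo1, Elf4 and Foxo3 were the lowest, in that order, in both genotypes. The levels of the 10 factors summed to 1444 (WT) and 1700 (cKO) FPKM, or 0.338% and 0.396% of the summed FPKM of all genes. Tcf7, Satb1 and Ets1 together made up 70.9% of the sum of the 10 in WT and 73.7% in cKO.

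The HMG box factors both rose. Tcf7 (NCBI gene 21414, GRCm38 chromosome 11, 52246527 to 52283383), the Wnt pathway factor that marks naive and long-lived T cells, went from 448 (WT) to 524 (cKO) FPKM. That was 1.17-fold (1.15 to 1.19) on an estimated 20677 and 23990 reads, with an FDR of 1.11e-59 in the authors' deposited table. Its place among all genes by level went from 126 to 104. Lef1 (gene 16842, chromosome 3, 131110297 to 131224357), its closest partner in T cells, went from 139 to 153 FPKM, 1.10-fold (1.06 to 1.13), with an FDR of 8.44e-11 in the authors' deposited table. The WT and cKO counting intervals did not overlap for either gene. The level of Tcf7 was 3.21 times that of Lef1 in WT and 3.43 times in cKO, and the latter ratio over the former was 1.07 (1.03 to 1.11). Their relatives Tcf7l1 and Tcf7l2 were hardly expressed, with Tcf7l1 at 0.98 and 1.53 FPKM and Tcf7l2 at 0.42 and 0.41 FPKM, and neither passed. An annotated antisense gene, Gm43352, shares 13.7% of the exon bases of Lef1, as Gm20402 shares 7.78% of those of Foxo1 and Bach2os 5.4% of those of Bach2. The sources used here do not say whether counting used strand, so reads of such pairs cannot be told apart there.

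Satb1 (gene 20230, chromosome 17, 51736187 to 51833290), the chromatin organiser, had the smallest FDR of the 10, 1.28e-225 in the authors' deposited table. It went from 307 (WT) to 388 (cKO) FPKM, 1.27-fold (1.25 to 1.28), on 33492 and 42014 estimated reads. Among all tested genes 12.3% had a ratio at least as large, whatever their FDR. Bach2 (gene 12014, chromosome 4, 32238413 to 32586109), the repressor of effector genes, went from 60.8 to 65.1 FPKM, 1.07-fold (1.04 to 1.10), with an FDR of 3.25e-05 in the authors' deposited table. The ratio of Bach2 was reached or passed by 36.4% of tested genes. Bach1, its close relative that competes for small MAF partners, moved the other way and by more, from 27.5 to 16.9 FPKM, to 0.616 of WT (0.580 to 0.654). Of the small MAF genes, Maff rose from 8.87 to 13.0 FPKM, while Mafg (11.7 and 12.6 FPKM) and Mafk (30.1 and 27.4 FPKM) did not pass. The BACH relative Nfe2l2, which encodes NRF2, rose 1.13-fold.

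The forkhead factors did not move together. Foxo1 (gene 56458, chromosome 3, 52268337 to 52350109), which drives homing and survival genes in naive cells, stood at 40.6 (WT) and 41.7 (cKO) FPKM and was the one factor that did not pass. Its ratio was 1.03, with a counting interval of 0.984 to 1.08, and the authors' deposited table gives it an FDR of 0.453. Foxo3 (gene 56484, chromosome 10, 42181845 to 42276695), a FOXO factor with partly shared targets, rose from 12.3 to 15.9 FPKM, 1.29-fold (1.16 to 1.44), on 619 and 793 estimated reads. It had the largest ratio and the fewest reads of the 10, and the authors' deposited table gives it an FDR of 1.55e-05. The level of Foxo1 was 3.30 times that of Foxo3 in WT and 2.62 times in cKO, and the second ratio over the first was 0.795 (0.710 to 0.891). Foxo4 did not pass, at 18.5 and 19.9 FPKM. Foxp1 (gene 108655, chromosome 6, 98925342 to 99522746), needed for naive T cell quiescence in mice, fell from 69.0 to 60.4 FPKM, to 0.875 of WT (0.848 to 0.903). It was the larger of the falls, with an FDR of 1.79e-13 in the authors' deposited table. Whatever their FDR, 19.4% of tested genes had a ratio as low or lower. Foxp4, a relative expressed at a like level, fell from 73.7 to 69.4 FPKM, to 0.942 of WT (0.905 to 0.979). Foxp3, the factor of regulatory T cells, stood at 0.55 and 1.26 FPKM and rose.

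Of the ETS factors, 2 rose and 1 fell. Ets1 (gene 23871, chromosome 9, 32636241 to 32757820), the founding member of the family and a factor for T cell survival, rose from 269 (WT) to 341 (cKO) FPKM. Its ratio was 1.27 (1.25 to 1.29) on 23784 and 29892 estimated reads, with an FDR of 8.70e-163 in the authors' deposited table. Elf1 (gene 13709, chromosome 14, 79481174 to 79582491), an activator of T cell genes, rose from 67.1 to 81.3 FPKM, 1.21-fold (1.16 to 1.26). The opposite-strand gene Wbp4, at 13.1 and 14.7 FPKM, shares 4.85% of the exon bases of Elf1. Elf4 (gene 56501, chromosome X, 48411049 to 48463132), which holds back proliferation of CD8 T cells in mice, fell from 31.3 to 29.3 FPKM, to 0.935 of WT (0.889 to 0.983). Its FDR of 0.0338 in the authors' deposited table was the largest among the 9 that passed, and its WT and cKO counting intervals overlapped slightly. The paralogs therefore drew apart: Elf1 stood at 2.14 times the level of Elf4 in WT and 2.78 times in cKO, a ratio of 1.30 (1.22 to 1.38). The ratio of Ets1 to Elf1 changed less, from 4.01 to 4.199.

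**Figure D2:**
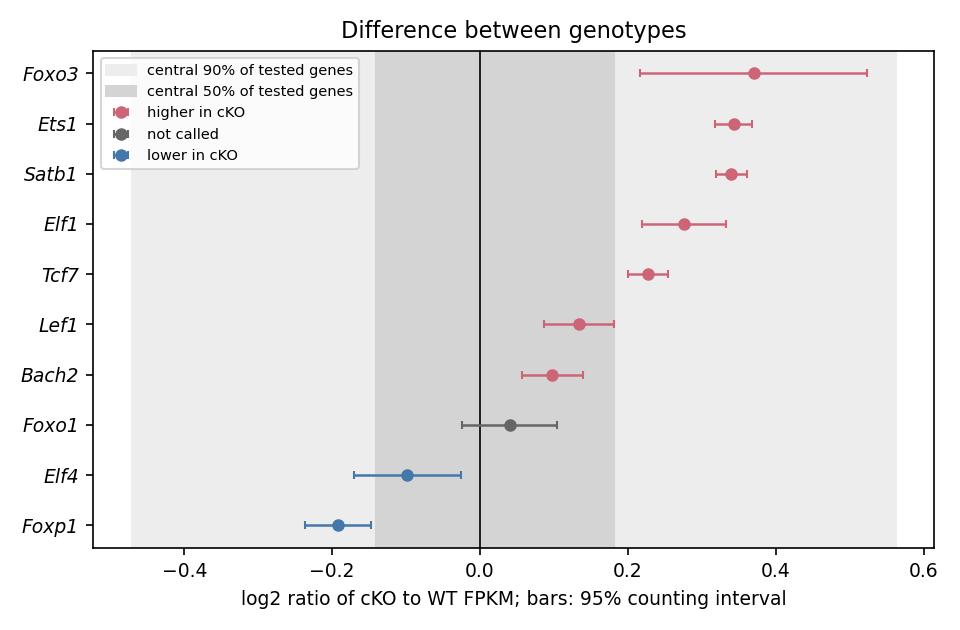
log2 ratio of cKO to WT FPKM for each factor with its 95% counting interval, coloured by the call from the authors' FDR, over bands that hold the central 50% and 90% of the ratios of 10728 tested genes. All 10 points lie inside the wider band, and those of Lef1, Bach2, Foxo1 and Elf4 lie inside the narrower one.

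**Figure D3:**
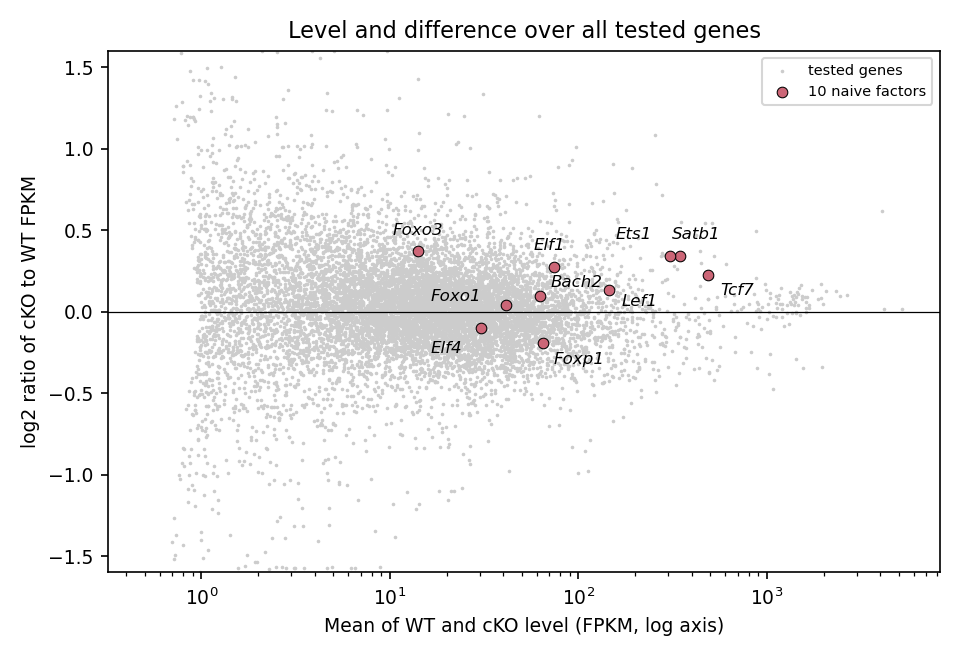
log2 ratio of cKO to WT FPKM against the mean level in FPKM (log axis) for all tested genes (grey) and the 10 factors (red); 171 genes beyond 1.6 in either direction are not shown. Ets1, Satb1 and Tcf7 lie among highly expressed genes on the upper side of the cloud, and Foxo3 has the lowest level of the 10.

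The other ETS genes were spread on both sides. Of 23 listed, 20 were in the table and 11 were at 1 FPKM or more, of which 5 rose, 1 fell and 5 did not pass. Over all tested genes 19.9% rose and 16.9% fell. Ets2, the closest relative of Ets1, rose from 29.2 to 47.2 FPKM, 1.62-fold (1.52 to 1.72), a larger ratio than that of any of the 10 factors. Fli1 rose from 15.1 to 19.0 FPKM, Etv6 1.27-fold, Elf2 1.11-fold and Etv3 1.07-fold, and the repressor Erf fell to 0.889 of WT. Elk4 (50.3 and 47.6 FPKM), Gabpa (20.9 and 20.4 FPKM) and Elk3 did not pass. The median of the 11 was -0.001 on the log2(FPKM + 1) scale. The partners of ETS1 went in different directions: Runx1 fell from 26.6 to 19.3 FPKM, to 0.725 of WT (0.684 to 0.768), its cofactor Cbfb fell to 0.874, and Runx3 rose from 10.8 to 14.1 FPKM, 1.31-fold (1.19 to 1.44).

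Genes known to be driven by FOXO factors mostly rose, although Foxo1 itself did not pass. Of 16 listed, all at 1 FPKM or more, 13 rose, 1 fell and 2 did not pass, with a median of 0.32 on the log2(FPKM + 1) scale beside 0.015 over all tested genes. Of all tested genes 19.9% rose and 16.9% fell. With an assumed CV of 10%, Ccr7 alone of the 16 would have passed. Ccng2, an inhibitor of cell cycle progression, rose from 26.2 to 40.7 FPKM, 1.55-fold (1.44 to 1.68). Irs2, an adaptor of insulin signalling, rose from 5.36 to 8.12 FPKM, Fbxo32, a ubiquitin ligase subunit, from 3.87 to 5.36 FPKM, and Cdkn1b, which encodes the cell cycle inhibitor p27, from 57.6 to 77.0 FPKM. The homing genes Ccr7, S1pr1 and Klf2 rose 1.64-fold, 1.34-fold and 1.32-fold. The exception was Il7r, the interleukin-7 receptor chain, which fell from 148.5 to 142.4 FPKM, to 0.959 of WT (0.9296 to 0.989). Sesn3 (77.9 and 80.9 FPKM) and Sod2 (12.6 and 11.9 FPKM) did not pass. Of the kinases and the deacetylase that act on FOXO proteins, Sgk1 fell from 17.5 to 14.2 FPKM and Akt2 to 0.952 of WT, whereas Akt1 and Sirt1 did not pass. RNA levels do not report where FOXO proteins are in the cell.

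Listed targets of TCF-1 and LEF-1 went in both directions, and whether they followed their factors was not tested. Of 12 listed, 10 were at 1 FPKM or more, and 3 rose, 6 fell and 1 did not pass, with a median of -0.20 on the log2(FPKM + 1) scale. The shares of all tested genes that rose and fell were 19.9% and 16.9%. Axin2, a feedback inhibitor and standard readout of the Wnt pathway, rose from 6.62 to 7.93 FPKM, 1.198-fold (1.06 to 1.35). Slamf6, a surface receptor of stem-like T cells, rose from 32.4 to 39.3 FPKM, and Eomes, an effector and memory factor, from 1.26 to 2.59 FPKM. Rnf43, another feedback inhibitor, fell from 1.04 to 0.51 FPKM, the interleukin-6 receptor gene Il6ra from 51.9 to 40.9 FPKM and Id3, an inhibitor of E proteins, from 49.8 to 41.4 FPKM. Rnf43 reached 1 FPKM in WT alone, the genotype where it was higher. Znrf3 did not pass, at 7.64 and 7.57 FPKM. Among the cofactors, Ctnnb1, which encodes beta-catenin, stood at 87.9 and 88.6 FPKM and did not pass. The corepressor Tle3 fell from 59.9 to 49.7 FPKM and the coactivator Bcl9 from 16.4 to 12.9 FPKM, while Aes, a short Groucho family member, rose from 147.5 to 173.4 FPKM and Bcl9l 1.14-fold.

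Genes that BACH2 is known to repress were low, and those that passed rose. Of 10 listed, 7 were in the table and 4 were at 1 FPKM or more, of which 3 rose and 1 did not pass. Of all tested genes, 19.9% rose and 16.9% fell by the same rule. Ccr9 and Prdm1 reached 1 FPKM in cKO alone, so the filter took them in through the genotype where they were higher. The chemokine receptor gene Ccr4 rose from 7.06 to 10.9 FPKM, 1.55-fold (1.35 to 1.78), Ccr9 from 0.57 to 1.52 FPKM, and Gata3, the factor of T helper 2 cells, from 7.17 to 9.29 FPKM. Prdm1, which encodes the effector factor BLIMP-1, stood at 0.94 and 1.09 FPKM and did not pass.

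**Figure D4:**
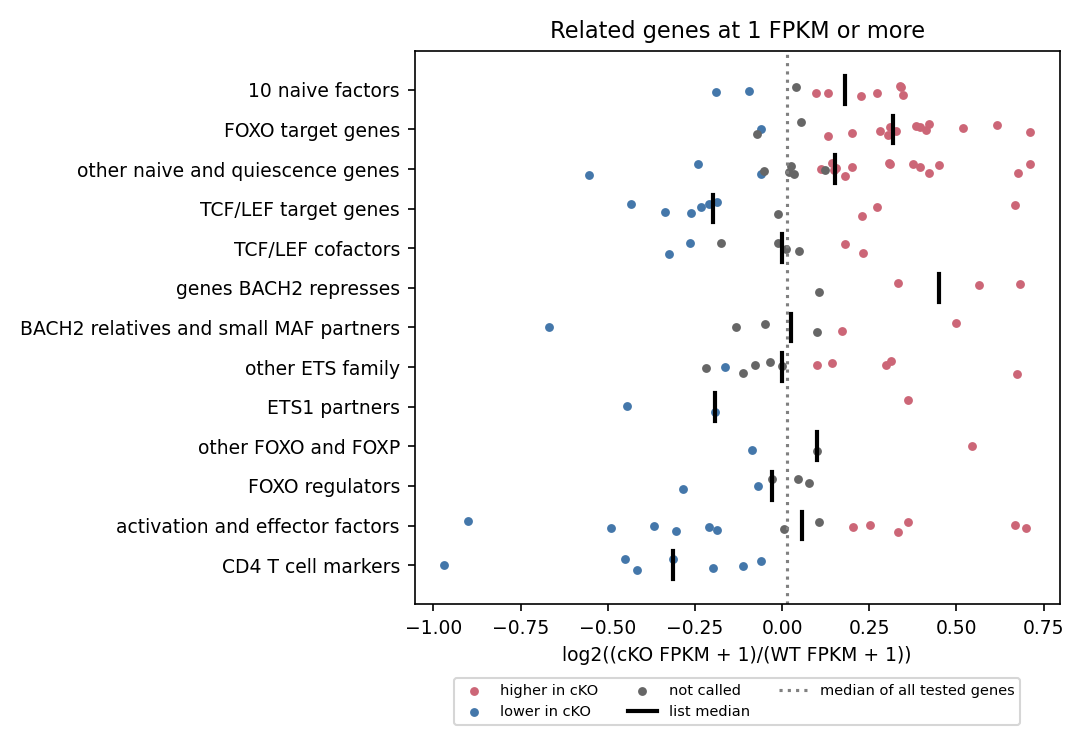
Difference between genotypes on the log2(FPKM + 1) scale for the 10 factors and 12 lists of related genes, 1 point per gene at 1 FPKM or more, coloured by call, with the median of each list (black bar) and of all tested genes (dotted line, 0.015). The FOXO target genes lie mostly to the right (median 0.32), the TCF/LEF target genes mostly to the left (median -0.20) and all 7 CD4 T cell markers to the left (median -0.31).

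Other genes of the naive and resting state were examined beside the 10 factors. Of 22 genes, 14 rose, 3 fell and 5 did not pass, and without the 5 genes that are also on the FOXO target list 10 of 17 rose and 2 fell. Among all tested genes 19.9% rose and 16.9% fell. Dapl1, a gene of resting naive cells, rose from 15.3 to 25.1 FPKM, 1.64-fold (1.33 to 2.02), Foxj1, a factor that restrains T cell activation, from 1.04 to 1.65 FPKM, and Txnip, an inhibitor of glucose uptake, 1.37-fold. Vsir, which encodes the inhibitory receptor VISTA, fell from 226 to 153 FPKM, and the costimulatory receptor gene Cd27 from 341 to 288 FPKM. Btg1, Slfn2 and Tob2 did not pass, at ratios of 1.01, 1.02 and 0.963. Factors of activation and effector fates were split evenly: of 14 at 1 FPKM or more, 6 rose, 6 fell and 2 did not pass, beside those same shares. Some of these genes are counted in other lists too. Myc, Bcl6 and Eomes are also TCF/LEF targets, Gata3 and Prdm1 are on the BACH2 list, and Runx3 is an ETS1 partner. Myc is also an early activation marker, so the list counts are not separate observations. Zeb1 rose from 26.7 to 44.0 FPKM, 1.65-fold (1.57 to 1.73), while Id2 fell from 34.9 to 18.2 FPKM, Tbx21 from 2.32 to 1.36 FPKM, Maf from 1.81 to 1.18 FPKM and Irf4, induced by receptor signals, from 249 to 202 FPKM. Hif1a, at 90.4 and 90.7 FPKM, did not pass.

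Markers of cell identity and activation differed between the genotypes as well, and their part in the results above was not tested. The 7 CD4 T cell markers listed were Cd4 and the general T cell genes Cd3d, Cd3e, Cd3g, Thy1, Lck and Cd5. All 7 were well expressed and all 7 fell, with a summed level of 2343 (WT) and 1875 (cKO) FPKM. Their ratios ran from 0.507 for Thy1 to 0.960 for Cd4. All 5 early activation markers also fell, their sum going from 2646 to 2245 FPKM. By the same rule 16.9% of all tested genes fell and 19.9% rose. The 7 B cell markers summed to 10.04 (WT) and 15.8 (cKO) FPKM, mostly Cd74, which rose, and Cd79a was the other one at 1 FPKM or more. The defining B cell gene Ms4a1 was near 0 in both genotypes (0.14 and 0.25 FPKM), and Pax5 was listed at the table's lowest value in WT. The CD8 markers Cd8a and Cd8b1 summed to 11.8 and 18.3 FPKM, and Cd8b1 rose whereas Cd8a stood at 0.28 and 0.47 FPKM. The 5 myeloid markers summed to 1.04 and 1.83 FPKM, with Lyz2 rising from 0.22 to 1.09 FPKM on 4 and 19 estimated reads. Lyz2 reached 1 FPKM in cKO alone, the genotype where it was higher. The others stayed below 1 FPKM: Cd14 (0.28 and 0.17 FPKM) and Csf1r (0.16 and 0.12 FPKM) were lower in cKO. Itgam (0.29 and 0.34 FPKM) and Adgre1 (0.09 and 0.11 FPKM) were higher. The 2 NK markers in the table summed to 10.5 and 8.55 FPKM, with Prf1 falling and Klrb1c at 0.09 and 0.13 FPKM. Foxp3 and Ikzf2, markers of regulatory T cells, summed to 1.38 and 2.91 FPKM and both rose. Each reached 1 FPKM in cKO alone, the genotype where it was higher. The 3 erythroid markers in the table summed to 0.71 and 0.88 FPKM, and none reached 1 FPKM.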

How the data were processed

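RNA of naive CD4+ T cells was sequenced on a BGISEQ-500, per the labels' protocols, and Bowtie2 2.2.5 and mm10 are named in the submitters' processing notes. The sources used here do not name the quantification tool, the annotation, strand use or the authors' test. The deposited expression values have no unit in the header and behave as FPKM, with 1 column per genotype and 0.01 as the lowest value. How the 2 libraries of a genotype were joined is not stated. The deposited log2 value of a gene is the log2 of cKO over WT. The p-value and FDR were computed by the authors. The deposited FDR was handled as a score because it reaches 1.03.

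The members and lists were chosen with earlier results of these data known. Calls used the deposited FDR below 0.05 at 1 FPKM or more in either genotype. Reads were estimated from what a single read is worth (56.7 FPKM bases, after an offset of 36 bases), calibrated on deposited p-values. A negative binomial test on these reads gave log10 p-values correlated with the deposited ones at r = 0.999 over 16706 genes, which are not independent replicates. Part of that was fitted. Overlapping exons were taken from GENCODE vM21. Tests were checked on simulated data. The rule for named genes took all 10 factors, up to 6 passing genes per list by size and up to 3 that did not pass by level. Klf2, Il7r, Cd27, Irf4 and the markers were named after their values were seen, and some genes the rule took are not reported here. Python 3.11.15, pandas 2.3.3 and scipy 1.17.1 were used.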

Additional observations from a re-analysis of the deposited data

How the results depend on the processing

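No value exists for a single library, so no replicate could be left out. No paired analysis was possible because the columns carry no replicate number. With no filter, at 5 FPKM or more, with the recomputed read test and with the median change set to 0, 7 factors were higher and 2 lower. The filters could not alter these counts, and the read tests use reads calibrated on the deposited p-values. Requiring at least 1.2-fold left 4 higher and 0 lower. The authors' rule of 2-fold and an FDR of at most 0.001 left 0 and 0. With an assumed CV of 10% 0 were higher and 0 lower, and with 5%, an alternative chosen after seeing the data, 2 and 0. Both CV settings widen the assumed spread by construction. The median difference of the 10 factors ran from 0.16 to 0.19 (log2) over other pseudocounts and scalings. All 40 recomputed differences of single factors kept their direction, but no setting could have turned one round. A pseudocount cannot change the sign. The scalings subtracted 0.0167 or -0.0081 (log2), less in size than the smallest difference, 0.039 for Foxo1. Of 92 related genes tested, 43 rose and 22 fell (46.7% and 23.9%, against 19.9% and 16.9% of all tested genes), or 4 and 1 with an assumed CV of 10% (0.764% and 0.699% of all tested genes). Counting error limits Foxo3 most, with 619 reads in WT.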
